A study of Mus musculus with 2 samples.

Results

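Intermediate filament genes were followed through the developing endocrine pancreas of the mouse. They were the type II keratins Krt7, Krt8 and Krt90, the type I keratins Krt18, Krt19 and Krt33a, and vimentin (Vim), a type III filament. The members were chosen by name, with earlier results of these data known, and all 7 were found among the 25507 gene rows of both count tables. The samples were 2 single-cell libraries of pancreas of mouse embryos at E14.5, both labelled wild type, with no treatment named. Cells had been enriched by flow sorting on Ngn3eGFP, a green fluorescent reporter of the endocrine progenitor factor Neurog3, and both the low and the high fraction were taken. Wild type is thus the label's word for embryos that carried this reporter. The labels do not say which fraction a cell came from, nor whether the libraries are separate animals, so p-values measure only the spread between these samples. Cells were tagged in inDrop droplets, where each captured RNA molecule receives a unique molecular identifier (UMI).

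Keratins assemble as obligate pairs of a type I and a type II chain, and simple epithelia such as the pancreatic duct are known for Krt8 and Krt18, often with Krt7 and Krt19. Vimentin assembles with itself and is best known from mesenchyme, where it marks migratory cells. During endocrine development cells of the Spp1- and Sox9-positive epithelial trunk switch on Neurog3, leave the epithelium, pass through a Chgb-positive precursor state and become alpha cells (Gcg), beta cells (Ins1 and Ins2) or other hormone cells. Acinar cells (Cpa1) arise from the tips of the same epithelium.

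Cells were placed in gates by their raw UMIs, taking the first gate met in this order: at least 1 Csf1r, 3 Cpa1, 20 Ins1 plus Ins2, 5 Gcg, 4 Neurog3, 5 Chgb or 3 Spp1 UMIs. Of 1585 cells kept, 1211 fell in a gate. Library 1 gave 107 Spp1, 103 Neurog3, 77 Chgb, 29 Gcg, 36 Ins, 12 Cpa1 and 30 Csf1r cells, and library 2 gave 218, 158, 121, 53, 95, 90 and 82 in that order. Median depth was 3183 to 5629.5 UMIs per cell over the gates of library 1 and 2667 to 4166 in library 2, highest in the Cpa1 gate of both. Most markers not used for gating followed the gates. Levels are given in CPM, counts scaled to an equal total for each sum of cells. Sox9 was at 761 and 1045 CPM in the Spp1 gate against 89.0 and 143 in the Chgb gate. Fev, a precursor factor, was at 37.1 and 20.6 CPM against 672 and 703. The sum of 6 trunk markers was 2661 and 3271 CPM in the Spp1 gate. It was 1554 and 1514 in the Neurog3 gate and 442 and 518 in the Chgb gate. Of these 6, Cldn6 was higher in the Neurog3 gate (863 and 891 CPM) than in the Spp1 gate (600.4 and 559). The precursor marker Vwa5b2 was at 499.6 and 502 CPM in the Neurog3 gate, near the 508 and 591 of the Chgb gate. The Csf1r gate was mixed. Only 6 of its 30 cells in library 1 and 44 of 82 in library 2 held 5 or more UMIs of other macrophage markers. The macrophage-rich subset is therefore given apart. The Chgb and Gcg gates were mixed as well, as no gate was set on other hormones. Sst, the delta cell hormone, was at 271 and 2350 CPM in the Chgb gate. Ghrl, the epsilon cell hormone, was at 1536 and 688 CPM in the Gcg gate. The libraries shared 3 barcodes among the cells kept.

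Krt8 and Krt18 lie beside each other on chromosome 15 and are read away from each other, with their starts 23.7 kb apart. Krt8 runs from chr15:101996698 to 102004482 on the minus strand and Krt18 from chr15:102028180 to 102032027 on the plus strand (GENCODE M21, GRCm38). Krt7 (chr15:101411043-101430313) and Krt90 (chr15:101552356-101562950) lie on the same chromosome, Krt19 (chr11:100140810-100148665) and Krt33a (chr11:100011195-100016212) on chromosome 11 and Vim (chr2:13573927-13582826) on chromosome 2. Their upstream flanks are shown because the levels of these neighbours part from each other below. Both come from RefSeq's 250 bases before each start (GRCm38.p6), 5′ to 3′ on the gene's strand, less the bases inside the gene's own exons in GENCODE, which leaves 110 bases at chr15:102004483-102004592 and 214 bases at chr15:102027966-102028179. Capitals mark the core letters bound by ETS factors, GGAAGT on either strand, a motif added after the windows had been read.
Krt8: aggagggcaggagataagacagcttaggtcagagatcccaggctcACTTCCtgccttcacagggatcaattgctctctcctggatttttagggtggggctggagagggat
Krt18: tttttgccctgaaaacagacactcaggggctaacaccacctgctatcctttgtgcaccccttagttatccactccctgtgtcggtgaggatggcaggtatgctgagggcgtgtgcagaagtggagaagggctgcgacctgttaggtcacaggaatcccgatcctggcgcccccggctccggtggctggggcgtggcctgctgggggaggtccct
Among 32851 mouse promoters of that length, 19.7% held GGAAGT, 12.4% the TATA box TATAAA, 32.7% the GC box GGGCGG, 6.75% the AP-1 letters TGANTCA and 35.0% the E-box letters CANATG, each searched on both strands. The Krt8 window held 1 GGAAGT match and no other motif searched, and the Krt18 window held none of the 5. A match in this window is a description of letters and shows no binding.

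Among the type II keratins, Krt8 was at its highest in trunk and progenitor cells. Its level was 766 and 768 CPM in the Spp1 gate of libraries 1 and 2 (767 ± 1.62, SD, n = 2) and 663 and 855 CPM in the Neurog3 gate (759 ± 136). The Chgb gate held 479 and 419 CPM (449 ± 42.2), the Gcg gate 306 and 360, the Ins gate 271 and 294, and the Cpa1 gate 371 and 358. The Spp1 and Neurog3 ranges overlapped, and both libraries of every other gate lay below them. Krt8 was not told apart between the Neurog3 and Spp1 gates by edgeR's quasi-likelihood test on the summed UMIs (log2 fold change 0.02 ± 0.20, SE, Benjamini-Hochberg adjusted p = 0.982), which does not show equal levels. From the Neurog3 to the Chgb gate Krt8 fell by 0.86 ± 0.21 on the log2 scale (edgeR adjusted p = 0.00401), with -0.55 in library 1 and -1.13 in library 2.

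Krt7 followed another course and peaked in the progenitors. It stood at 158 and 190 CPM in the Spp1 gate (174 ± 22.6), at 336 and 411 CPM in the Neurog3 gate (373 ± 52.9) and at 263 and 286 CPM in the Chgb gate (275 ± 16.1). Both Neurog3 values were above those of all other gates. Krt7 rose 2.18-fold from the Spp1 to the Neurog3 gate, a log2 change of 1.13 ± 0.27 (edgeR adjusted p = 0.00486), with 1.11 and 1.14 in the single libraries. That call was lost with DESeq2 (adjusted p = 0.0942) and with every gate minimum halved (edgeR adjusted p = 0.0607). The decline to the Chgb gate missed the threshold (log2 -0.53 ± 0.27, edgeR adjusted p = 0.299), and so did the difference between the Chgb and Spp1 gates (log2 0.59 ± 0.28, edgeR adjusted p = 0.182). The Gcg gate held 87.3 and 199 CPM, the Ins gate 166 and 210.2 and the Cpa1 gate 42.8 and 41.4, the lowest values of any gate. Krt7 overlaps the antisense gene Gm671, Krt8 the long noncoding gene Gm36026 and Krt90 the miRNA gene Gm44393, each on the other strand. Whether counting used strand is not stated, so reads of these partners cannot be told apart.

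**Figure D1:**
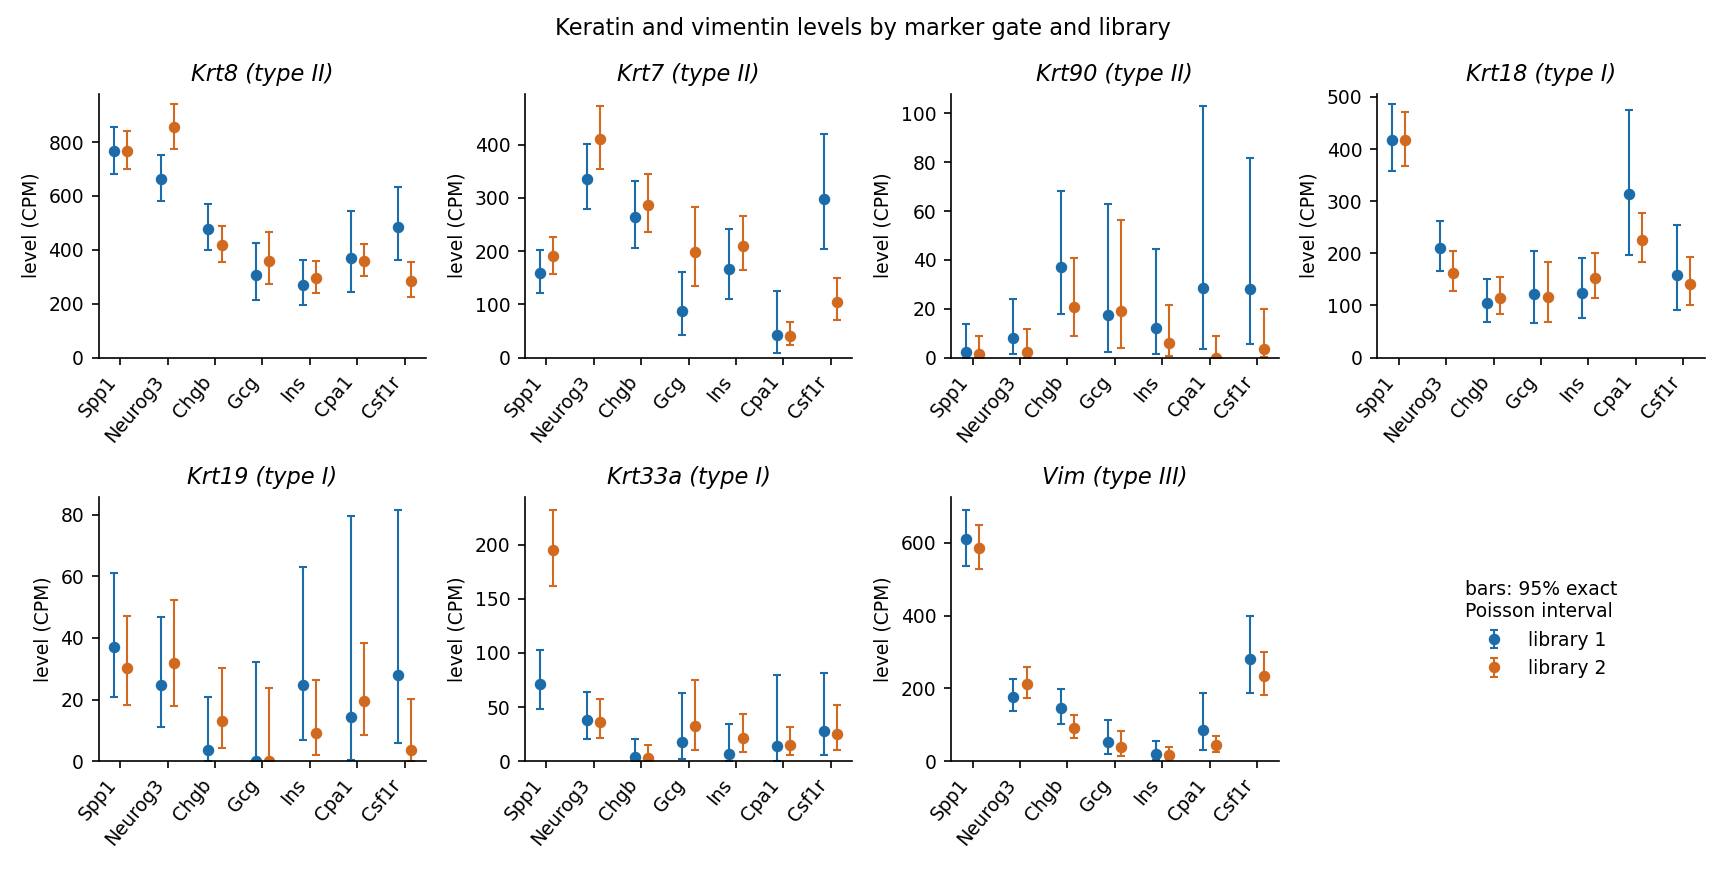
Level of each gene (CPM of the summed UMIs, vertical axis) in the 7 marker gates (horizontal axis), 1 point per library, with 95% exact Poisson intervals that cover counting error only. Krt18, Krt33a and Vim are highest in the Spp1 gate of both libraries and Krt7 in the Neurog3 gate, while the Spp1 and Neurog3 points of Krt8 overlap.

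By finer steps Krt7 was highest in Neurog3 cells that already held Chgb. Spp1 cells with 0 Neurog3 UMIs held 170 and 184 CPM, and Spp1 cells with 1 to 3 Neurog3 UMIs 124 and 202 CPM, so no step is visible there. Neurog3 cells with under 5 Chgb UMIs held 290.0 and 388 CPM. Neurog3 cells with 5 or more Chgb UMIs held 881 CPM in library 1 (25 UMIs in 7 cells, 95% exact Poisson interval 570.3 to 1301) and 806 CPM in library 2 (21 UMIs in 8 cells, 499 to 1232), above every other step in both libraries. These 15 cells were deeper (median 3838 and 3499 UMIs) than the other Neurog3 cells (3117 and 2802). The most Krt7 UMIs in 1 of them was 9 in library 1 and 5 in library 2, a spread over cells that the intervals leave out. They held Krt8 at 493 and 1343 CPM (14 and 35 UMIs). Their trunk marker sum was 952 and 1190 CPM, and their precursor marker sum 3666 and 4990 CPM, against 3169 and 4067 in the Chgb gate. The steps were described and not tested.

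**Figure D2:**
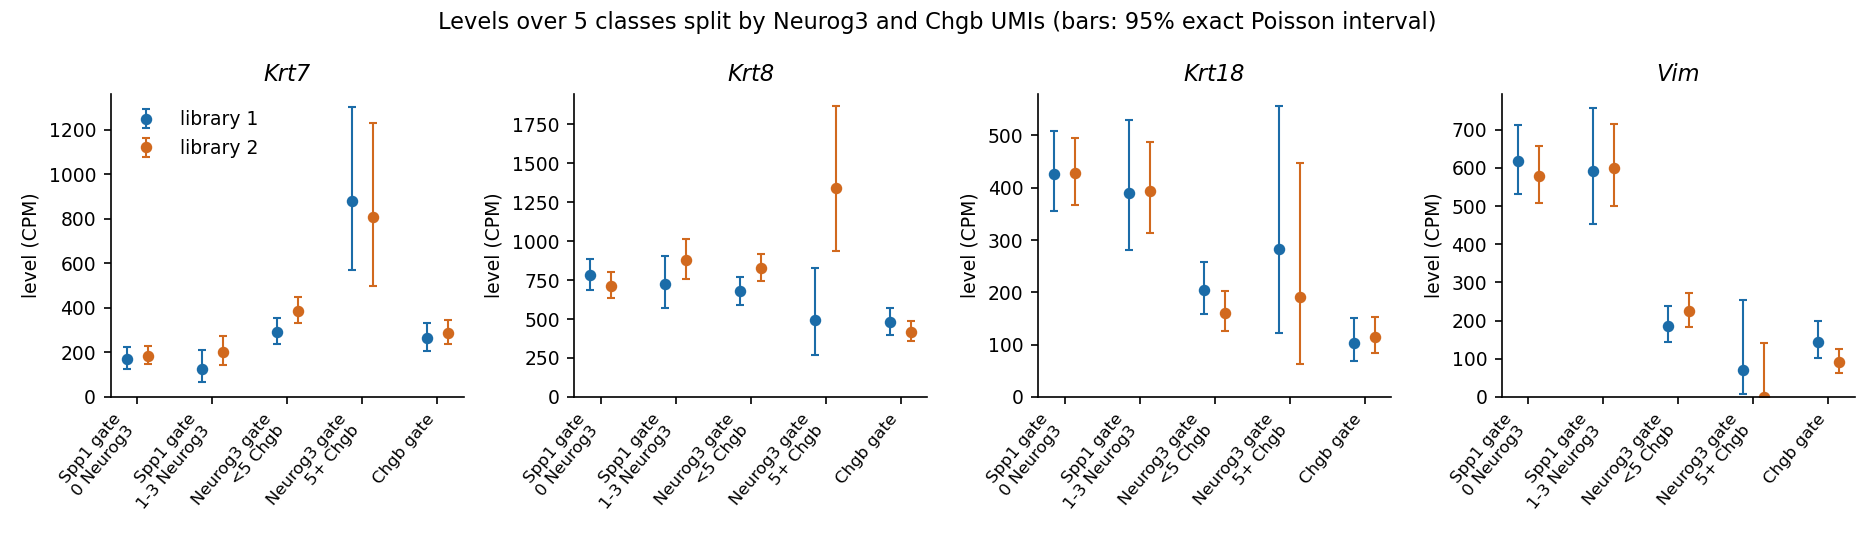
Levels (CPM, vertical axis) over 5 classes split by Neurog3 and Chgb UMIs (horizontal axis), 1 point per library with 95% exact Poisson intervals. Krt7 reaches 881 and 806 CPM in Neurog3 cells with 5 or more Chgb UMIs, and Vim and Krt18 step down between the Spp1 and the Neurog3 cells.

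Krt90, another type II keratin, was found at few UMIs. The Spp1 gate held 1 UMI in each library (2.47 and 1.58 CPM), the Neurog3 gate 8.19 and 2.12 CPM, the Chgb gate 37.1 and 20.8 CPM from 10 and 8 UMIs, the Gcg gate 17.5 and 19.3 CPM and the Ins gate 12.3 and 6.01 CPM. Both Chgb values lay above both Spp1 values. Krt90 did not pass the filter on low counts. Over both libraries the Chgb to Spp1 ratio was 14.3, with a counting interval of 3.41 to 127 on 18 against 2 UMIs, and without the filter its log2 difference was 3.49 ± 0.92 (edgeR adjusted p = 0.00499).

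Among the type I keratins, Krt18, the usual partner of Krt8, left the Krt8 pattern at the progenitor stage. It stood at 418 and 417 CPM in the Spp1 gate (417 ± 0.686) and at 210.2 and 163 CPM in the Neurog3 gate (187 ± 33.4). The Chgb gate held 104 and 114 CPM (109 ± 7.50), the Gcg gate 122 and 116, the Ins gate 123 and 153 and the Cpa1 gate 314 and 226. The Spp1 values were above all others, and the Cpa1 gate came next. Krt18 fell by 1.14 ± 0.24 on the log2 scale from the Spp1 to the Neurog3 gate (edgeR adjusted p = 0.00106), with -0.96 in library 1 and -1.32 in library 2. The further decline to the Chgb gate was 0.84 ± 0.28 on the log2 scale and missed the threshold (edgeR adjusted p = 0.0549). It passed when the Cpa1 and Csf1r gates were left out of the fit (adjusted p = 0.0222), with halved gate minimums (0.0258), with thinned cells (0.0341) and with the macrophage-rich Csf1r subset (0.0458). Over both steps Krt18 fell 3.95-fold (log2 -1.98 ± 0.27, edgeR adjusted p = 6.95e-08).

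The balance of Krt8 to Krt18 therefore differed between gates. Each Krt18 UMI stood against 1.83 Krt8 UMIs in the Spp1 gate of library 1 (95% exact interval 1.52 to 2.23) and 1.84 in library 2 (1.58 to 2.15). In the Neurog3 gate these were 3.16 (2.43 to 4.13) and 5.25 (4.10 to 6.79), and in the Chgb gate 4.61 (3.04 to 7.20) and 3.66 (2.61 to 5.23). The Spp1 intervals did not overlap those of the Neurog3 or Chgb gates. The ratio was 2.50 and 3.11 in the Gcg gate, 2.20 and 1.92 in the Ins gate and 1.18 and 1.58 in the Cpa1 gate, which was the lowest in both libraries. The Cpa1 intervals (0.64 to 2.19 and 1.21 to 2.07) overlapped those of the Spp1 gate. Capture per gene is unknown, so the ratio compares gates and gives no ratio of proteins. Within the type II pair, Krt7 made up 17.1% and 19.8% of the Krt7 plus Krt8 UMIs in the Spp1 gate, 33.6% and 32.4% in the Neurog3 gate, 35.5% and 40.6% in the Chgb gate and 10.3% and 10.4% in the Cpa1 gate. This share was 22.2% and 35.6% in the Gcg gate. In the Ins gate it was 38.0% and 41.7%, so a raised share was not particular to progenitors and precursors.

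**Figure D3:**
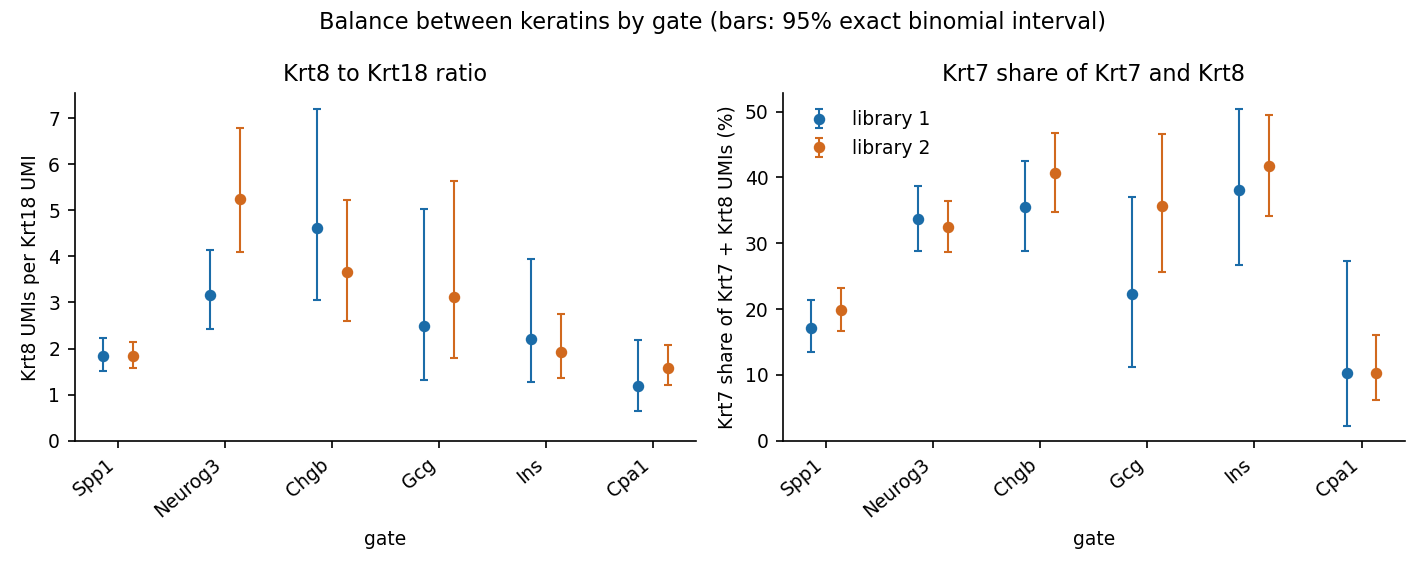
Krt8 UMIs per Krt18 UMI (left) and Krt7 as a percent of Krt7 plus Krt8 UMIs (right) in 6 gates, 1 point per library with 95% exact intervals from the binomial distribution. The ratio is 1.83 and 1.84 in the Spp1 gate and 3.16 and 5.25 in the Neurog3 gate, and the Krt7 share lies at 10.3% and 10.4% in the Cpa1 gate.

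Krt33a, a type I keratin known from hair, was found mostly in trunk cells. The Spp1 gate held 71.7 CPM in library 1 and 195 CPM in library 2 (133 ± 87.1), from 29 and 123 UMIs. The Neurog3 gate held 38.2 and 36.0 CPM, the Chgb gate 3.71 and 2.60 CPM from 1 UMI each, the Gcg gate 17.5 and 32.1, the Ins gate 6.17 and 21.0 and the Cpa1 gate 14.3 and 14.6. Both Spp1 values lay above all others, but the libraries differed from each other there beyond their counting intervals (48.0 to 103 and 162 to 232 CPM). Krt33a fell by 1.75 ± 0.41 on the log2 scale from the Spp1 to the Neurog3 gate (edgeR adjusted p = 0.00316), with -0.86 in library 1 and -2.38 in library 2, and DESeq2 did not call it (adjusted p = 0.101). From the Neurog3 to the Chgb gate it fell by 3.58 ± 0.80 (edgeR adjusted p = 0.00133), but with cells that met exactly 1 gate the call was lost (adjusted p = 0.531). The Spp1 to Chgb ratio was 48.0, with a counting interval of 13.1 to 400 on 152 against 2 UMIs. The log2 difference from Spp1 to Chgb cells was -4.01 in library 1 and -5.86 in library 2.

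Krt19, a duct keratin, was sparse. It stood at 37.1 and 30.1 CPM in the Spp1 gate from 15 and 19 UMIs, at 24.6 and 31.8 CPM in the Neurog3 gate, at 3.71 and 13 CPM in the Chgb gate, at 24.7 and 9.01 CPM in the Ins gate, at 14.3 and 19.5 CPM in the Cpa1 gate, and at 0 in the Gcg gate of both libraries (upper bounds of the exact Poisson intervals 32.2 and 23.7 CPM). The Spp1 and Neurog3 ranges overlapped. Krt19 did not pass the filter on low counts, and without the filter the Chgb and Spp1 gates were not told apart (log2 -1.89 ± 0.69, edgeR adjusted p = 0.0981). The count ratio of Spp1 to Chgb was 3.58 (interval 1.48 to 10.4).

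Vimentin was highest in trunk cells. It stood at 610.3 and 586 CPM in the Spp1 gate (598 ± 17.1), at 177 and 212 CPM in the Neurog3 gate (195 ± 24.2), at 145 and 91.1 CPM in the Chgb gate (118 ± 37.9), at 52.4 and 38.6 in the Gcg gate, at 18.5 and 18.0 in the Ins gate and at 85.6 and 43.8 in the Cpa1 gate. The Spp1 values did not overlap any other gate. Vim fell by 1.57 ± 0.25 on the log2 scale from the Spp1 to the Neurog3 gate (edgeR adjusted p = 5.31e-06), and the further difference to the Chgb gate missed the threshold (log2 -0.86 ± 0.29, edgeR adjusted p = 0.0518). It passed without the Cpa1 and Csf1r gates in the fit (adjusted p = 0.0159) and with the macrophage-rich Csf1r subset (0.0425). From the Chgb to the Ins gate Vim fell by 2.51 ± 0.46 (edgeR adjusted p = 0.000307), which was lost with cells thinned to 1000 UMIs (adjusted p = 0.219).

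Mesenchyme markers were read beside Vim. Their summed level, with 7 or 8 of 8 genes detected, was 170 and 174 CPM in the Spp1 gate, 183 and 165 in the Neurog3 gate and 171 and 185 in the Chgb gate. In cells with no gate that sum was 702 and 2214 CPM, and Vim was at 152 and 393 CPM. By step, Vim stood at 617 and 579 CPM in Spp1 cells with 0 Neurog3 UMIs, at 591 and 599.9 CPM in those with 1 to 3, and at 186 and 224 CPM in Neurog3 cells with under 5 Chgb UMIs. Neurog3 cells with 5 or more Chgb UMIs held 2 Vim UMIs in library 1 and 0 in library 2. Krt18 stood at 427 and 428, 391 and 394, and 204 and 161 CPM up to the Neurog3 cells with under 5 Chgb UMIs. In those with 5 or more Krt18 was at 282 and 192 CPM (8 and 5 UMIs in 7 and 8 cells). These counts are too few to set its course there apart from that of Vim. Neither gene was lower in the Spp1 cells with 1 to 3 Neurog3 UMIs beyond the counting intervals.

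Across the comparison of the Neurog3 with the Spp1 gate, 5 of the 7 members passed the filter on low counts. Krt7 was called higher, where 3.47% of 10361 genes were called higher, and Krt18, Krt33a and Vim were called lower, where 2.70% were. Between the Chgb and Neurog3 gates Krt8 and Krt33a were called lower and 0 higher, beside 4.80% of all genes lower and 2.83% higher. Between the Chgb and Spp1 gates 4 of the 5 were lower (all but Krt7) and 0 higher, beside 8.0% of all genes lower and 5.98% higher. In that comparison Krt8 changed by -0.84 ± 0.21 and Vim by -2.43 ± 0.27 on the log2 scale (edgeR adjusted p = 0.00284 and 3.28e-10). These comparisons share gates, so their calls are not independent.

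**Figure D4:**
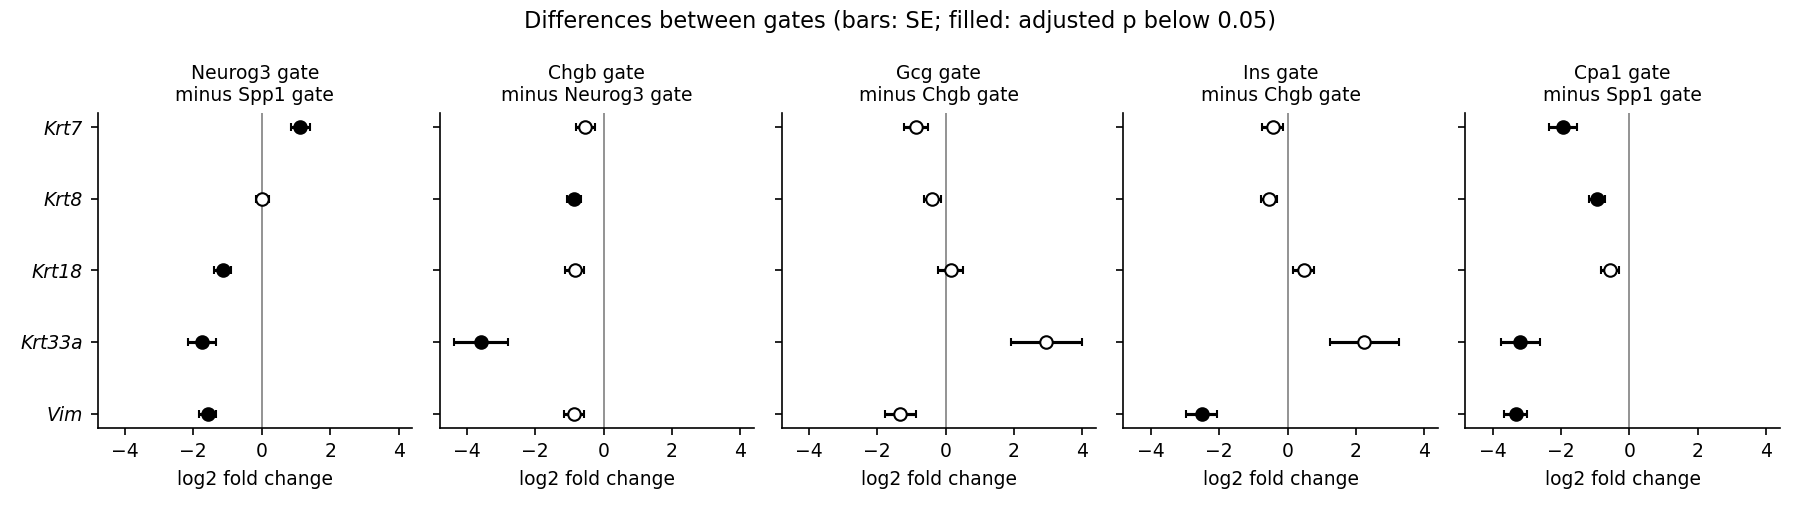
Log2 fold change (horizontal axis) of the 5 tested genes between gates, with SE bars and filled points for an edgeR adjusted p below 0.05. Krt7 is to the right of 0 between the Neurog3 and Spp1 gates, where Krt18, Krt33a and Vim are to the left and Krt8 is near 0.

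For the Gcg and Ins gates edgeR called no tested keratin, either against the Chgb gate, which also held Sst, or against each other. Between the Gcg and Chgb gates edgeR called 0 of the 5 tested members, beside 0.762% of all genes, and between the Gcg and Ins gates 0, beside 2.08%. At an unadjusted p below 0.05 the first of these had Krt7 (log2 -0.86 ± 0.35) and Vim (log2 -1.32 ± 0.45) on the lower side and Krt33a (log2 2.95 ± 1.03) on the higher side, where 4.59% of all genes were lower and 3.74% higher at that p. The second had none, with Vim nearest (log2 1.19 ± 0.64), where 6.11% of all genes were lower and 4.48% higher. DESeq2 also called 0 in both. Between the Ins and Chgb gates Vim alone was called, on the lower side, beside 0.444% of all genes lower and 1.34% higher. There Krt8 (log2 -0.55 ± 0.23) was also lower and Krt33a (log2 2.25 ± 1.01) higher at an unadjusted p below 0.05, where 3.98% of all genes were lower and 5.44% higher.

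Cells of the acinar gate held less of most members than trunk cells. Between the Cpa1 and Spp1 gates 4 of the 5 tested members were lower and 0 higher, beside 3.46% of all genes lower and 4.12% higher. Krt7 changed by -1.94 ± 0.42, Krt8 by -0.95 ± 0.23, Krt33a by -3.19 ± 0.57 and Vim by -3.33 ± 0.34 on the log2 scale (edgeR adjusted p = 0.000957, 0.00362, 6.09e-05 and 6.99e-11). Krt18, at 314 and 226 CPM, was not told apart from the Spp1 gate (log2 -0.58 ± 0.26, edgeR adjusted p = 0.204). The Krt8 call was lost with DESeq2 (adjusted p = 0.0593), with halved gate minimums (0.105) and in thinned cells (0.0726), and the Krt7 call in thinned cells (0.0760). In thinned cells only 1 member was called against 4, so Krt33a and Vim were not both called there. Library 1 had 12 Cpa1 cells, and Krt33a and Vim changed by -2.23 and -2.80 there against -3.48 and -3.53 in library 2.

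Macrophages served as cells that should lack keratins. In the Csf1r cells with 5 or more other macrophage UMIs, Krt7, Krt8 and Krt18 were at 0 UMIs in library 1 (6 cells, upper bound of the exact Poisson interval 236 CPM) and at 29.2, 36.5 and 36.5 CPM in library 2 (44 cells), while Vim was at 384 and 182 CPM. The whole Csf1r gate held Krt8 at 484 and 285 CPM. In it 18 of 30 and 32 of 82 cells met another gate as well, so its values are those of a mixture. Against the Spp1 gate 4 members were lower and 0 higher, beside 2.27% of all genes lower and 4.17% higher.

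Shares of cells with a UMI were compared after thinning every cell to 1000 UMIs. Krt8 was seen in 51.4% and 45.9% of Spp1 cells and 46.6% and 57.6% of Neurog3 cells, against 0% and 2.27% of the macrophage-rich cells. Unthinned, these shares were 81.3% and 76.1% of Spp1 cells, 79.6% and 81.0% of Neurog3 cells and 0% and 11.4% of the macrophage-rich cells, at median depths of 2508 and 2990 UMIs in the last. The 0 of 6 such cells in library 1 allows a share of cells with a UMI, which is not the share that express the gene, of up to 45.9% (upper bound of the exact binomial interval). Krt18 went from 39.3% and 33.9% of Spp1 cells to 17.5% and 12.7% of Neurog3 cells and 6.49% and 5.79% of Chgb cells. Unthinned, those shares were 69.2% and 60.6%, 37.9% and 30.4%, and 26.0% and 22.3%. Krt7 went from 15.0% and 18.8% of Spp1 cells to 31.1% and 31.6% of Neurog3 cells, and Vim from 40.2% and 38.1% to 14.6% and 13.9%. Unthinned, Krt7 went from 46.7% and 35.8% to 56.3% and 60.8%, and Vim from 72.0% and 68.8% to 36.9% and 29.7%. In the macrophage-rich cells Krt7 and Krt18 were each seen in 0% and 2.27% of thinned cells and Vim in 33.3% and 18.2%. Krt33a was seen in 5.61% and 19.7% of Spp1 cells thinned, and in 23.4% and 37.2% unthinned. The order of the shares was that of the CPM levels for Krt7, Krt18 and Vim between these gates.

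**Figure D5:**
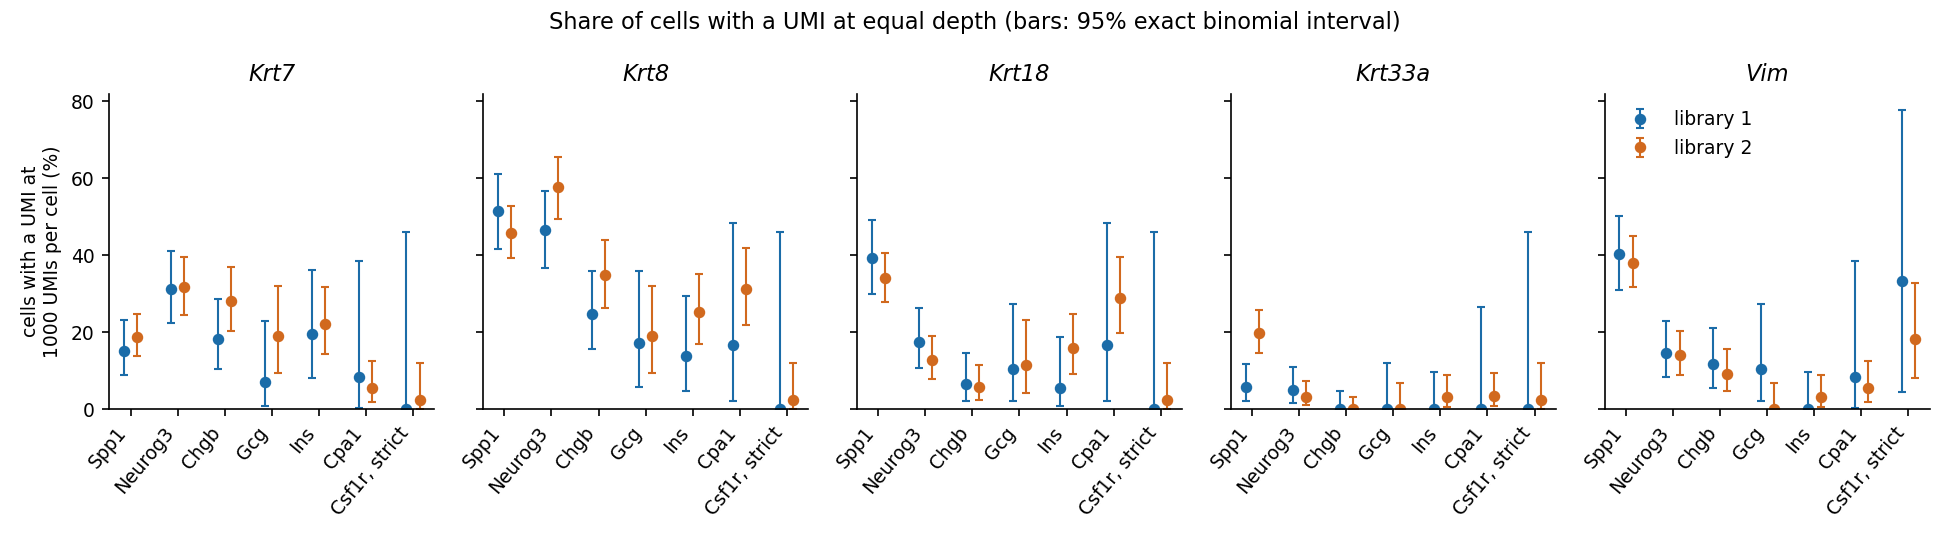
Percent of cells with at least 1 UMI after thinning to 1000 UMIs per cell (vertical axis) in 6 gates and in the macrophage-rich Csf1r cells (strict), 1 point per library with 95% exact binomial intervals. Krt18 and Vim are lower and Krt7 higher in Neurog3 than in Spp1 cells of both libraries.

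Relations between members from cell to cell within a gate were read in thinned cells, and not all pairs are given. In thinned Spp1 cells with a Krt8 UMI, 43.6% of library 1 and 34.0% of library 2 also had a Krt18 UMI, against 34.6% and 33.9% of those without Krt8. In Neurog3 cells Krt7 was seen in 25.0% and 29.7% of cells with a Krt8 UMI and in 36.4% and 34.3% of those without. In Neurog3 cells Vim was seen in 27.8% and 25.0% of the 18 and 20 cells with a Krt18 UMI, against 11.8% and 12.3% of the others. In Spp1 cells the libraries went opposite ways for this pair (45.2% against 36.9%, and 32.4% against 41.0%). With so few UMIs per cell these shares show neither a relation nor its absence. In the Neurog3 gate the 10% of cells with the most Krt7 held 40.7% and 38.7% of its UMIs.

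Cycling and non-cycling Spp1 cells were compared because the trunk divides and Neurog3 cells leave the cycle. Vim was at 481 and 487 CPM in cycling cells (36 and 78 cells with 3 or more UMIs of 14 cycle genes) and at 699 and 653 CPM in the others, and Krt18 at 323 and 341 against 482 and 467 CPM. Krt8 was at 871 and 793 CPM against 694 and 752. The groups did not overlap for any of these, but edgeR called 0 of the 5 members, with adjusted p = 0.348 for Vim and 0.421 for Krt18. It called 0.862% of 6383 genes, and this fit had 1 residual degree of freedom. At an unadjusted p below 0.05, Krt7, Krt18 and Vim were lower, where 3.90% of all genes were lower and 4.98% higher, and DESeq2 called 0 members as well. The cycling cells were deeper (median 4308 and 3054 UMIs against 3331 and 2440).

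The members carried most keratin UMIs. All 53 rows named Krt with a number had at least 1 UMI, with 6398 UMIs in cells kept, and the 6 keratins described here held 82.1% of them. As the members were chosen with earlier results of these data known, this share is a description only. Most came from Krt8 (2665), Krt7 (1125) and Krt18 (1050). The other 47 were too low to be tested, the highest being Krt26 with 92 UMIs in both libraries. Krt19 (99 UMIs) and Krt90 (70) lay at a similar level and did not pass the filter either.

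Other filament genes and their partners were read from lists of names. Of 13 other intermediate filament genes 5 were tested, of 15 linkers and desmosome genes 12, and of 19 actin and microtubule partners of epithelial shape 17. Between the Neurog3 and Spp1 gates the filament list had 0 higher and 1 lower, the linkers 1 and 2 and the shape list 1 and 7, with median log2 differences of 0.09, -0.02 and -0.30 beside 0.00064 over all genes tested. Of all genes tested 3.47% were called higher and 2.70% lower. Lmnb1, a nuclear lamin, fell by 1.24 ± 0.29, and Dsg2, a desmosomal cadherin, changed by -1.32 ± 0.32. Anxa2, a membrane and actin linker, changed by -2.33 ± 0.34 and Tagln2, an actin binder, by -1.76 ± 0.26. Anxa2 is also one of the genes in the trunk marker sum. Dst, which links filaments to hemidesmosomes and microtubules, rose by 1.68 ± 0.27. The edgeR adjusted p was 0.00266 for Lmnb1, 0.00436 for Dsg2, 1.08e-06 for Anxa2, 1.32e-06 for Tagln2 and 9.84e-06 for Dst.

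From the Neurog3 to the Chgb gate the lists had 0 higher and 1 lower, 1 and 2, and 1 and 7, with medians of -0.89, -0.09 and -0.59 beside -0.02 over all genes tested. The shares of all genes called were 2.83% higher and 4.80% lower. Lmnb1 changed by -1.27 ± 0.37, Dsg2 by -1.87 ± 0.44 and Cd24a, a surface glycoprotein, by -2.35 ± 0.30. Pkp4, a junction plaque protein, rose by 1.64 ± 0.49 and Tagln2 by 1.61 ± 0.26, so Tagln2 was lowest in the Neurog3 gate of these 3 gates. The edgeR adjusted p was 0.0196, 0.00216, 3.07e-08, 0.0249 and 1.13e-05 in that order. Between the Chgb and Spp1 gates the shape list had 8 lower and 0 higher of 17, with a median of -1.16. Over all genes tested 8.0% were lower and 5.98% higher there, with a median of -0.0034. Anxa2 changed by -5.30 ± 0.50 and Dsg2 by -3.19 ± 0.40 (edgeR adjusted p = 1.52e-12 and 1.07e-08).

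Fewer list genes passed in the other comparisons. The shape list had 7 lower and 0 higher of 17 between the Cpa1 and Spp1 gates, beside 3.46% of all genes lower and 4.12% higher. It had 6 lower and 0 higher between the Csf1r and Spp1 gates, beside 2.27% and 4.17%. Of all genes, 0.762% were called between the Gcg and Chgb gates and 2.08% between the Gcg and Ins gates. Between the Ins and Chgb gates 1.34% were higher and 0.444% lower. Cd24a fell by 2.41 ± 0.61 between the Chgb and Gcg gates, Ezr, a membrane to actin linker, rose by 1.43 ± 0.33 between the Chgb and Ins gates, and Tpm1, a tropomyosin, was higher in the Gcg than in the Ins gate by 1.51 ± 0.42 on the log2 scale (edgeR adjusted p = 0.0342, 0.00781 and 0.0360). In the Cpa1 gate Nes, the nestin filament gene, was higher than in the Spp1 gate by 3.38 ± 0.54 (edgeR adjusted p = 7.87e-06), while Anxa2 and its binding partner S100a10 were lower by log2 differences of -5.02 and -4.25. Lmnb1 alone of these lists passed between cycling and non-cycling Spp1 cells, higher by 1.77 ± 0.24 (edgeR adjusted p = 0.00401). There 0.862% of all genes were called.

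Patterns of level over the 14 gate sums of both libraries were set side by side by Pearson correlation of log2(CPM + 10), over 8126 candidate genes that reached 50 CPM, as a description. Sums of a library share its preparation. Nearest to Krt7 were Ireb2 (r = 0.95), Ddr1 (0.91) and Gadd45g (0.91), and nearest to Krt8 were Jmy (0.94), Gm8113 (0.90) and Litaf (0.88). Krt18 was nearest to Agrn (0.92), Ptn (0.91) and Onecut1 (0.91), Krt33a to Sft2d2 (0.90), Adgrg6 (0.89) and Actn4 (0.88), and Vim to Tinagl1 (0.94), Litaf (0.91) and Sparc (0.91). Between members the correlation was 0.77 for Krt8 with Vim, 0.72 for Krt18 with Krt33a, 0.56 for Krt8 with Krt18 and -0.32 for Krt7 with Krt18.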

How the data were processed

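For each library the authors deposited a table of UMI counts over 25507 gene symbols, from reads aligned to GRCm38 per the submitters' processing notes. The aligner, counter, annotation and strand setting were not given in the sources used here. Libraries 1 and 2 held 535 and 1100 barcodes and 1910588 and 3425983 UMIs, with medians of 3244 and 2828.5 per barcode. Every deposited column was used.

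Kept were cells with 1000 UMIs or more, 500 genes or more and no more than 20% mitochondrial UMIs, less 13 and 11 doublets called per library by Scrublet (scanpy 1.11.5), which left 515 and 1070. A low share of doublets called means that some may remain, and 77 and 156 cells met more than 1 gate. UMIs were summed per library and gate. The 14 sums were fitted with gate plus library as terms by edgeR's quasi-likelihood test (version 4.0.16 in R 4.3.3) after TMM scaling and filterByExpr, which left 6 residual degrees of freedom and 10361 genes. Library was the block because each library holds every gate. The 8 gate genes were not tested. P-values were adjusted by Benjamini-Hochberg over all genes tested at 0.05, and each gene's spread is drawn toward one shared over genes. Single-library log2 ratios use a pseudocount of 1 CPM. Levels are plain CPM, not scaled by TMM. Intervals cover counting error only, at 95%, and a count of 0 is given with the upper bound of its interval. The script was tested on simulated sums for the Neurog3 and Spp1 gates. It called 16 of 100 genes with a log2 change of 1 and 70 of 100 with a change of 2. Of 10169 unchanged genes it called 2. Differences of these sizes can thus be missed. DESeq2 1.42.0 was the second tool.

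The members and lists were chosen with earlier results of these data known. All 7 members were named. From each list the 2 genes with the lowest adjusted p per comparison, called with the same sign in both libraries, and for each member the 3 genes most like it were named, though not all are given in the text. Promoters were found for 5 of the 7 members, and proteins were not analysed here. Alternatives were another scaling, tool, filter, gate minimum, depth, doublet rule, set of gates and cycle minimum, the fit without the block and each library alone. The macrophage-rich Csf1r subset was added after seeing the data.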

Additional observations from a re-analysis of the deposited data

How the results depend on the processing

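Among member log2 fold changes under the fitted alternatives, 415 kept their direction and side of the threshold, 9 reversed, 7 gained the call and 11 lost it. The causes were not tested. The number of members called between the Neurog3 and Spp1 gates was 2 with DESeq2 against 4. Between the Chgb and Neurog3 gates it was 1 with cells that met exactly 1 gate, 4 with the macrophage-rich Csf1r subset and 4 without the Cpa1 and Csf1r gates, against 2. With cells thinned to 1000 UMIs it was 0 between the Ins and Chgb gates against 1, 1 between the Cpa1 and Spp1 gates against 4, and 2 between the Csf1r and Spp1 gates against 4. Thinned cells hold fewer UMIs, and counts over all genes fell as well. Thinning moved 72 shares of cells with a UMI beyond their binomial intervals and left 26 within them. The directions that reversed belonged to differences not called in the fit reported. Krt8 between the Neurog3 and Spp1 gates became -0.0055 with halved gate minimums and -0.065 with exactly 1 gate met. Krt18 between the Gcg and Chgb gates became -0.045 without the filter and -0.019 with doubled minimums. Krt7 between the Csf1r and Spp1 gates became -0.11 without the filter, -0.047 with halved minimums, -1.65 with exactly 1 gate met (edgeR adjusted p = 0.0347) and -0.49 in thinned cells, and Krt33a between cycling and non-cycling cells became -0.40 in thinned cells. Krt7 between the Chgb and Spp1 gates gained the call without the Cpa1 and Csf1r gates (edgeR adjusted p = 0.0462).

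Over all genes, the numbers called ranged from 259 to 907 between the Neurog3 and Spp1 gates (640 in the fit reported), 319 to 1068 between Chgb and Neurog3 (790), 555 to 1817 between Chgb and Spp1 (1449), 29 to 141 between Gcg and Chgb (79), 62 to 270 between Ins and Chgb (185), 80 to 332 between Gcg and Ins (216), 211 to 947 between Cpa1 and Spp1 (785), 241 to 741 between Csf1r and Spp1 (667) and 27 to 147 between cycling and non-cycling cells (55). The fit without the library block, which sets aside the pairing of gates within a library, called the same number of members in every comparison, 4 between the Neurog3 and Spp1 gates, where Krt7 rose by 1.12 (edgeR adjusted p = 0.0241) and Krt18 fell by 1.14 (edgeR adjusted p = 0.00736).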
